A study of Caenorhabditis elegans with 2 samples.

Results

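The regions described here are the 1198 ranked HLH-26 ChIP-seq peaks that lie in the 2 piRNA gene clusters of Caenorhabditis elegans chromosome IV. They were chosen by position alone: a peak entered if its summit lay from 4.5 to 7.0 Mb (the left cluster, 652 peaks) or from 13.5 to 17.2 Mb (the right cluster, 546 peaks). They are 24.3% of the 4936 ranked peaks on chromosome IV and 3.39% of the 35301 ranked peaks in the list. Of the 1198, 205 overlapped an annotated piRNA gene by at least 1 bp and 993 did not. The other 3738 peaks of chromosome IV serve as the comparison, and 29 of them overlapped a piRNA gene. Every one of the 1198 peaks was 524 bp wide with its summit at the midpoint.

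The samples were 2 biological replicates of whole worms of strain RW12174, in 1 group. The strain carries hlh-26::GFP as the CRISPR insertion st12174, which also brings an unc-119(+) rescue copy and loxP sites, in an unc-119(tm4063) III background. Worms were synchronised by starving L1 larvae after bleaching and were collected as young adults at 66 hours. Chromatin, sonicated to 200 to 800 bp, was precipitated with an antibody against GFP. There was no second condition or control group, so no comparison below is between conditions. Whole worms mix all tissues, so binding in a few cells and weak binding in many cannot be told apart.

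In C. elegans, piRNAs are the 21U-RNAs, short germline RNAs that begin with U and are carried by the Piwi protein PRG-1, which silences transposons and other foreign transcripts. Most are transcribed from their own very small genes, which lie in dense clusters on chromosome IV, between and inside ordinary genes. Many of these genes have an upstream element, the Ruby motif, with the core CTGTTTCA, and are transcribed by RNA polymerase II with the help of an snRNA-type activating complex that contains SNPC-4, PRDE-1, TOFU-4 and TOFU-5. HLH-26 is a basic helix-loop-helix protein of the REF-1 family, and proteins of the wider class bind E-box and related 6-letter sites.

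The annotation (Ensembl, WBcel235) holds 15363 piRNA genes, of which 14714 are on chromosome IV and 14204 (96.5% of those) are in the 2 clusters. Each is 21 bp long, and 96.2% of those on chromosome IV begin with T. The right cluster is the denser, with 11388 genes (3078 per Mb) against 2816 genes (1126 per Mb) in the left, and the rest of the chromosome holds 45.2 per Mb. Within the clusters, 6457 piRNA genes (45.5%) overlap another one, so they are not independent units.

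The following piRNA genes, each with the 60 bases before it, are shown because they lie in the peaks that the results below turn on. Capitals mark the Ruby core where it is present and the 21U sequence at the right end. Sequences are from RefSeq WBcel235, 5′ to 3′ on the strand of the piRNA.
21ur-12188, chrIV:16505726-16505806, minus strand, in the peak before zip-7: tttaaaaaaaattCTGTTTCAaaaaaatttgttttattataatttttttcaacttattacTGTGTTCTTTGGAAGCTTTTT
21ur-4808, chrIV:16835122-16835202, plus strand, in a peak with 6 piRNA genes: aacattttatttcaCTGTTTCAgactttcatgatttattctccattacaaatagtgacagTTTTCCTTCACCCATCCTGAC
21ur-51, chrIV:16835240-16835320, minus strand, in the same peak: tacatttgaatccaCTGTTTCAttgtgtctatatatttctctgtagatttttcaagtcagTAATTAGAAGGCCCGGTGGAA
21ur-3120, chrIV:14408847-14408927, minus strand, in the peak in xdh-1: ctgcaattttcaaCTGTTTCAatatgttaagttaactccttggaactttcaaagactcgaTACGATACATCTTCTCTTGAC
21ur-8094, chrIV:6030755-6030835, minus strand, in the piRNA peak of highest score: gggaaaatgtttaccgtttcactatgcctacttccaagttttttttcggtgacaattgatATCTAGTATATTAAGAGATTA
21ur-4820, chrIV:15900538-15900618, minus strand, in the piRNA peak of highest signal: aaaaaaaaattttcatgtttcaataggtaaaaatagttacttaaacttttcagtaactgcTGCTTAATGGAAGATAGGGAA
In the first 4 the core starts 47, 46, 46 and 47 bases before the piRNA, and in the last pair these letters are not present in the 60 bases. The core of 21ur-3120 lies outside the xdh-1 peak (chrIV:14408363-14408886), which reaches the piRNA gene only near its end. Across the clusters, 4944 of 14204 piRNA genes (34.8%) had the core in those 60 bases, starting a median of 46 bases before the gene (quartiles 45 and 47), and on the rest of chromosome IV 31.6% had it.

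Next are the 101 bases around 5 summits, on the plus strand of RefSeq WBcel235, shown to set 3 of the peaks that scored 540 or more beside 2 piRNA peaks of high signal. In the mir-52 peak, capitals mark the bases that belong to the miRNA gene. In the others they mark a searched motif on either strand (a bHLH site, or the Ruby core in the peak before zip-7). These windows are not typical, since 23.6% of windows at all cluster summits held a searched bHLH motif. The windows of the piRNA peak of highest signal and of the cluster peak of highest score held no searched motif.
mir-52, chrIV:14034033-14034133: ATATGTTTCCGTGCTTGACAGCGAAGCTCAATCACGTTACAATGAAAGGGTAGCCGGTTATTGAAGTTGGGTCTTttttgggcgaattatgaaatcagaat
hrpu-1 intron, chrIV:15042560-15042660: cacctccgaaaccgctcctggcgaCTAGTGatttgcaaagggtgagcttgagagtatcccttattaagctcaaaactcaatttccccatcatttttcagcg
zip-7 intron, chrIV:16503791-16503891: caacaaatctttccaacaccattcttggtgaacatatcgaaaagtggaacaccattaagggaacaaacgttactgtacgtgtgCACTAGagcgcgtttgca
before zip-7, over the upstream part of 21ur-12188, chrIV:16505764-16505864: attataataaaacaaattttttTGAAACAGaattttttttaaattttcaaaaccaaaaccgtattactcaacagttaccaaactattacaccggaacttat
xdh-1 exon, chrIV:14408575-14408675: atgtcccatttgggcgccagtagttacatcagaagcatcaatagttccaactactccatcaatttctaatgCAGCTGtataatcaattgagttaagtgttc

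The clusters held fewer ranked peaks per Mb than the rest of the chromosome. The density was 261 summits per Mb in the left cluster (exact 95% Poisson interval 241 to 282), 148 in the right cluster (135 to 160) and 331 in the rest of chromosome IV (320 to 342). Both clusters together had 193 per Mb (182 to 204), 0.584 of the density in the rest. The intervals cover counting error over peaks only, since peaks are not replicates of the experiment.

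Each replicate's own ranked list gave the same order. In replicate 1 the densities were 132, 87.3 and 183 per Mb for the left cluster, the right cluster and the rest, and in replicate 2 they were 180, 111 and 229. The ratio of both clusters to the rest was 0.575 in replicate 1 and 0.608 in replicate 2. The left cluster stood between the piRNA-dense right cluster and the rest in both replicates.

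**Figure D1:**
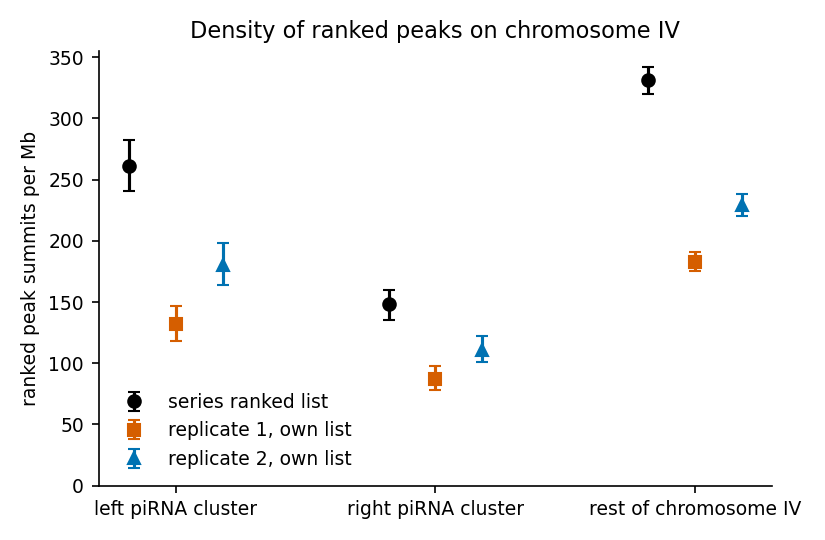
Ranked peak summits per Mb (y axis) in the left piRNA cluster, the right piRNA cluster and the rest of chromosome IV, for the series' ranked list and each replicate's own list, with exact 95% Poisson intervals. In all 3 lists the right cluster is lowest and the rest of the chromosome highest, from 87.3 against 183 per Mb in replicate 1 to 148 against 331 in the series' list.

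Base composition moved with this difference. The median GC of all 101-base windows was 31.7% in the clusters and 34.7% in the rest of the chromosome, while the windows at cluster summits had medians of 38.6% (peaks over a piRNA gene) and 42.6% (the others). Coding exons covered 17% of cluster bases and 25.7% of the bases elsewhere. The part of GC and of gene content in the density was not tested.

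Inside each cluster the peaks thinned where piRNA genes were densest. In bins of 100 kb, the 8 bins of the left cluster with fewest piRNA genes (0 to 48 genes) had a median of 30 peaks, from 20 to 62, and the 8 with most (161 to 220 genes) a median of 18, from 16 to 33. In the right cluster the 12 bins with fewest piRNA genes (24 to 256) had a median of 19 peaks (9 to 32), and the 12 with most (380 to 486) had 9 (3 to 20). The ranges of the bins with few and with many piRNA genes overlapped in both clusters.

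Across the 25 bins of the left cluster, Pearson's r between piRNA genes and peaks was -0.584 and Spearman's rho -0.581. Over the 37 bins of the right cluster they were -0.582 and -0.581. In the replicates' own lists Pearson's r was -0.514 and -0.602 in the left cluster, and -0.604 and -0.570 in the right. These are descriptions of bins that share a chromosome, libraries and base composition, and the bins' GC content moved with both measures: against peaks, r was 0.814 in the left cluster and 0.774 in the right, and against piRNA genes -0.546 and -0.751. In the left cluster the relation leaned on bins almost without piRNA genes, since over the 21 bins with 20 or more it was r = -0.353 and rho = -0.410.

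**Figure D2:**
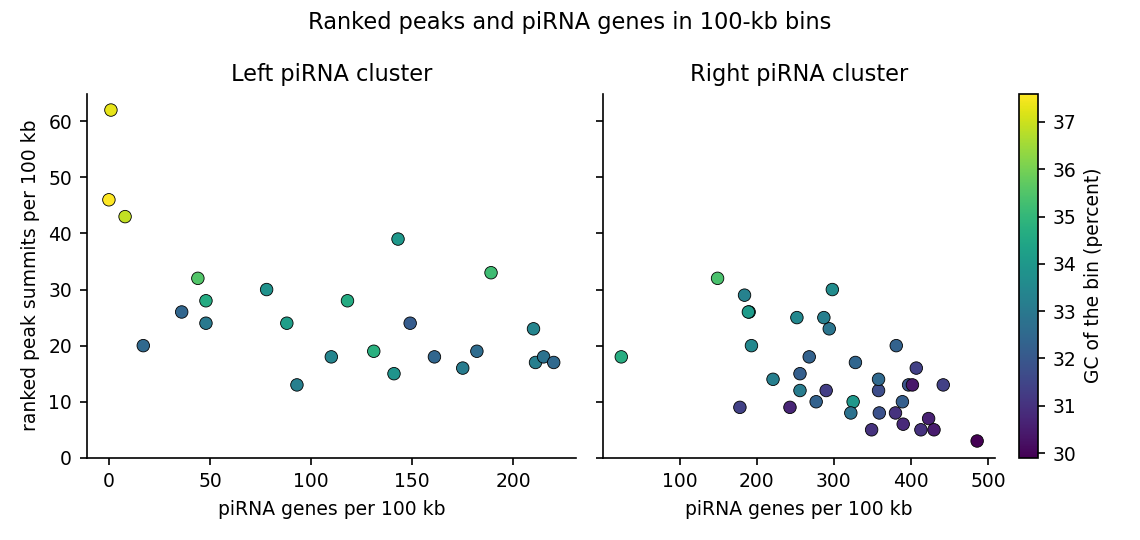
Ranked peak summits (y axis) against piRNA genes (x axis) in bins of 100 kb of the left and right piRNA clusters, coloured by the GC content of the bin in percent. Bins with many piRNA genes tend to have fewer peaks and lower GC, down to 3 peaks in a bin of the right cluster. The highest bin of the left cluster has 62. There are exceptions, such as a left bin with 189 piRNA genes, 33 peaks and 35.2% GC.

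The share of peaks over a piRNA gene was below the share of positions where a peak would touch one. If every 524-bp interval of the clusters is counted, 51.8% overlap a piRNA gene, but 205 of the 1198 peaks did (17.1%, exact 95% binomial interval 15 to 19.4). In the left cluster the share was 13.0% (10.5 to 15.9) of peaks against 35.5% of intervals, and in the right cluster 22.0% (18.6 to 25.7) against 62.8%. On the rest of chromosome IV, 0.776% of peaks overlapped a piRNA gene, against 1.98% of intervals. The share of cluster peaks was 14.6% in the own list of replicate 1 and 19% in that of replicate 2, both below the share of intervals.

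Of the 205 peaks, 117 held a single piRNA gene, 56 held 2, and 19, 9, 2 and 2 held 3, 4, 5 and 6 genes. Summits stood farther from the nearest piRNA gene than bases of the clusters do. The median distance was 2832 bp in the left cluster, against 572 bp over all bases, and 978 bp in the right cluster, against 145 bp. The left values, and the left density above, take in the first 100-kb bins of that cluster. These held 0, 1 and 8 piRNA genes and 46, 62 and 43 peaks. Within 100 bp of a piRNA gene lay 33 of 652 left summits (5.06%, against 18.4% of bases) and 57 of 546 right summits (10.4%, against 41.0%).

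Seen from the piRNA genes, 295 of 14204 in the clusters were overlapped by a ranked peak (2.08%, exact 95% binomial interval 1.85 to 2.32), whereas 8.45% of all 21-base intervals in the clusters were. Of the 2816 piRNA genes of the left cluster 104 were overlapped (3.69%) against 11.4% of intervals, and in the right cluster 191 of 11388 (1.68%) against 6.48%. The 510 piRNA genes outside the clusters showed the same order, with 24 overlapped (4.71%, 3.04 to 6.92) against 14.2% of intervals. The lower share at piRNA genes was thus not confined to the clusters in this list. With piRNA genes that overlap each other joined into 10632 loci, 234 loci (2.20%) were overlapped.

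Both replicates had this order on their own. In replicate 1, 1.1% of cluster piRNA genes were overlapped against 4.92% of intervals, and in replicate 2, 1.70% against 6.03%.

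Much of this distance between genes and intervals went with base composition. Of the piRNA genes, 26.9% lay in surroundings (201 bases) of under 25% GC and 47.0% in 25 to 30% GC, where 13.2% and 28.0% of intervals lie. Few intervals of such composition were overlapped: 0.830% under 25% GC and 2.18% at 25 to 30%, rising to 6.01%, 12.2% and 23.7% in the 3 classes above. The share of piRNA genes rose along with it, from 0.576% and 1.47% to 3.83%, 5.79% and 20%, the last over 125 genes. In every class it was below that of the intervals, though counting error was not worked out by class. The piRNA genes overlapped numbered 22, 98, 112, 38 and 25, from the lowest GC class to the highest.

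When intervals were weighted to the GC of the 525 bases around the piRNA genes, 2.69% of them were overlapped, against 2.08% of the genes. In the left cluster the weighted share was 4.60% against 3.69% of genes, and in the right cluster 1.89% against 1.68%. In replicate 1 it was 1.39% against 1.1%, and in replicate 2 1.98% against 1.70%. The remaining gap was small beside the unweighted one, and in the right cluster the weighted share lay inside the interval of the genes (1.45 to 1.93). With the GC of 201 bases in place of 525 it was 2.14%, above that interval. For the left cluster both weighted shares, 4.60% and 4.83% with 201 bases, lay above the interval (3.03 to 4.46). Since many piRNA genes overlap each other, these intervals are too narrow. This weighting was chosen after the values were seen.

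Gene structure moved less with it. Between genes, where 8832 of the piRNA genes lie (62.2%), 1.26% of piRNA genes and 4.63% of intervals were overlapped. In introns, home to another 4791 (33.7%), the shares were 3.19% and 8.09%, and for the 303 in coding exons 4.62% and 17.7%. Weighting intervals to the feature classes of the piRNA genes gave 6.28%.

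**Figure D3:**
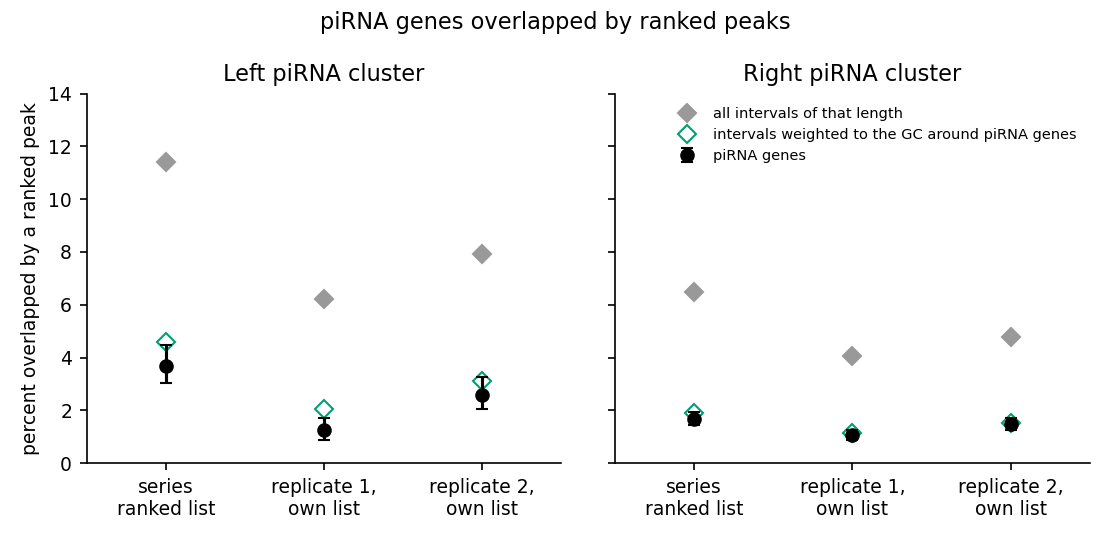
Percent overlapped by a ranked peak (y axis) for piRNA genes (filled circles, exact 95% binomial intervals), for all intervals of 21 bases (grey diamonds) and for intervals weighted to the GC of 525 bases around the piRNA genes (open diamonds), by cluster and list. In the left cluster of the series' list the 3 values are 3.69%, 11.4% and 4.60%.

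Coverage by ranked peaks dipped at piRNA genes. In the left cluster a peak covered 3.48% of piRNA starts, but 5.36% of the positions 500 bp before and 5.11% of those 500 bp after, and 5.75% and 6.07% of those 2000 bp away. In the right cluster 1.58% of starts were covered, 2.81% and 2.88% at 500 bp, and 3.44% and 3.71% at 2000 bp. The start was lower than both points at 500 bp in each replicate as well: 1.24% against 1.70% and 2.27% in the left cluster of replicate 1, and 2.56% against 4.72% and 4.08% in that of replicate 2. The dip is about as wide as a peak, so its true width was not resolved. These values are not weighted for GC, whose median was 27.7% in windows centred on piRNA genes and 31.7% in all cluster windows. The part of GC in the dip was not tested.

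**Figure D4:**
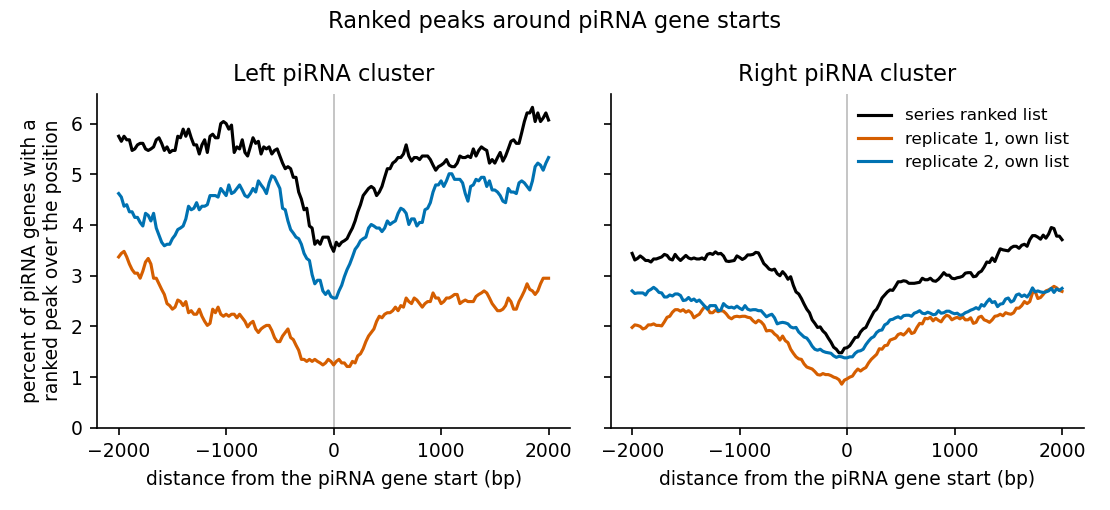
Percent of piRNA genes with a ranked peak over each position (y axis) by distance from the piRNA gene start in bp (x axis, on the strand of the piRNA), for the left and right clusters and 3 lists. Coverage in the series' list is 3.48% at the start in the left cluster and 1.58% in the right, lower than at 500 bp on either side.

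Where a peak did overlap a piRNA gene, the gene lay near the summit less often than near the ends of the peak. With the distance from summit to peak end divided into 3 equal steps, 27.6% of the 344 overlaps of peak and gene had the centre of the gene in the step nearest the summit and 39.8% in the outermost. The step between held 32.6%. The outermost step also takes genes that reach over the end of the peak, so it is a little longer than the others. The shares that an even spread would give were not worked out. A gene in overlapping peaks counts for each of them, so the overlaps are not independent. In 20 overlaps the summit lay inside the gene. From the nearest step to the outermost, the shares were 27.6%, 32.2% and 40.2% in replicate 1. In replicate 2 they were 33.0%, 27.6% and 39.4%, so the nearest step there held more than the step between.

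piRNA genes with and without the Ruby core were overlapped at nearly the same share. Of the 4944 genes with the core, 2.14% were overlapped (1.76 to 2.59), and of the 9260 without it 2.04% (1.76 to 2.35). The shares were 1.13% and 1.08% in replicate 1 and 1.80% and 1.64% in replicate 2. In each list the intervals of both kinds of gene overlapped. Only the exact letters CTGTTTCA counted as the core, so genes without it can hold a near variant. Examples printed above are ccgtttca before 21ur-8094 and atgtttca before 21ur-4820. Genes with a variant were not separated from genes with none, so these shares do not compare genes with and without the motif as such.

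The core CTGTTTCA was searched on both strands within 50 bp of the summit. It was present in 20 of 205 peaks over a piRNA gene (9.76%, 6.06 to 14.7), in 12 of 993 other cluster peaks (1.21%, 0.626 to 2.10) and in 20 of 3738 peaks of the rest of chromosome IV (0.535%, 0.327 to 0.825). Of all windows of the same length, 7.36% held it in the clusters and 0.760% elsewhere on the chromosome. At piRNA peaks of replicate 1's own list the share was 3.16% (0.656 to 8.95), and of replicate 2's 7.32% (3.84 to 12.4), both lower than in the series' list. The split by piRNA gene itself separates these classes, because the core lies just before many of the genes. Over the whole peak, 43.9% of piRNA peaks (90 of 205) and 5.54% of other cluster peaks (55 of 993) held the core. Of all cluster windows of about that length, 32.6% held it. Every piRNA peak holds a piRNA gene by the split, but only 51.8% of all 524-bp intervals of the clusters do. All windows are thus no matched background for either class, at the summit or over the whole peak.

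The bHLH motifs were about as common in both classes of cluster peaks. CACNAG, the most frequent, was in 13.2% of windows at piRNA peaks (8.86 to 18.6), 12.8% at other cluster peaks (10.8 to 15) and 13.8% at peaks of the rest (12.7 to 14.9), beside 8.43% of all cluster windows. CACGTG, the symmetrical E-box, was in 2.93%, 2.42% and 2.97%, beside 1.32% of all cluster windows. CACGCG was in 1.95%, 1.71% and 1.63%, beside 0.872%. The intervals of the 3 classes overlapped for each of these motifs.

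CATGTG was in 2.44%, 3.73% and 3.67% of windows, beside 2.67% of all cluster windows. For CATGCG the values were 2.93%, 2.92% and 2.38%, beside 1.57%, and for CAGCTG 2.93%, 3.12% and 2.46%, beside 1.58%. For every motif but CATGTG both classes of cluster peaks exceeded all cluster windows, and for CATGTG only the piRNA peaks did not. All 6 hold more G and C than the clusters do on average, and the part of GC was not tested. CACNAG includes no other searched motif, and the 6 words do not contain each other.

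By gene structure, the summits of both classes were more often in coding exons than cluster bases are. Coding exons held 32.2% of summits of piRNA peaks (25.9 to 39.1), 39.9% of those of other cluster peaks (36.8 to 43.0) and 39.6% of those of the rest, beside 17% of cluster bases. Introns held 30.2%, 23.6% and 27.9%, beside 28.9% of cluster bases. Space between genes held 29.3%, 24.8% and 23.4%, beside 48.1%. Cluster summits thus lay over gene bodies more often than the piRNA genes do.

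Other short RNA genes of the clusters were overlapped at a higher share than piRNA genes. In the clusters a ranked peak overlapped 20 of 41 tRNA genes (48.8%), 9 of 16 snRNA genes and 7 of 18 snoRNA genes, but 2 of 19 miRNA genes. On the rest of chromosome IV the counts were 23 of 30 tRNA genes, 9 of 25 snRNA genes, 18 of 41 snoRNA genes and 10 of 31 miRNA genes. These genes are longer than piRNA genes, which raises the chance of an overlap, and copies of a family can share reads. Intervals of the length of a piRNA gene do not carry that difference in length. In the clusters, 43.3% of such intervals in tRNA, snRNA and snoRNA genes were overlapped. That class leaves out the miRNA genes. The share was 8.45% for all such intervals and 2.08% for piRNA genes. These shares are not weighted for GC, with which the share of intervals overlapped rose as given above. The parts of GC and of shared reads were not tested.

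The median heights of the classes were close in the list as deposited. With overlapping peaks merged, the median of piRNA peaks was -2.01 from that of other cluster peaks. The deposited signal, whose scale is not stated, had a median of 26 over the 205 piRNA peaks (10.1 to 69.6), 26.3 over the other 993 (10.1 to 89.9) and 25.8 over the rest of chromosome IV (10.1 to 114). Each ranked peak also carries the signals of the 2 peaks that were compared. In the first compared list the medians were 16.3, 18 and 17.5 for the 3 classes, and in the second 14.2, 15.1 and 14.2. In the replicates' own lists they were 17.8, 20.4 and 19.3 for replicate 1 and 16, 16 and 15.9 for replicate 2. In replicate 1 the piRNA peaks were the lowest class, and in replicate 2 the 3 medians were almost equal.

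Their scores were further apart. The score encodes the irreproducible discovery rate (IDR), which is low where a peak ranks high in both compared lists, and the lowest score in the list, 27, stands for an IDR of 86.1%. At that lowest score stood 124 of the 205 piRNA peaks (60.5%, 53.4 to 67.2), 39.8% of other cluster peaks (36.7 to 42.9), 46.0% of peaks on the rest of chromosome IV (44.4 to 47.6) and 45.3% of the whole list. Replicate 1's own list had 48.4% against 42.0% and 46.9%, and replicate 2's had 56.7% against 45.0% and 48.3%. In replicate 1 the intervals of the piRNA peaks (38.0 to 58.9) and of the other cluster peaks (37.9 to 46.2) overlapped.

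Among peaks of like signal the piRNA peaks had the highest share in each class, with wide intervals. With the whole list divided into 4 classes of signal of equal size, 76.4% (63.0 to 86.8), 83.0% (69.2 to 92.4), 60.9% (47.9 to 72.9) and 10.3% (2.87 to 24.2, 4 of 39 peaks) of piRNA peaks stood at the lowest score, from the lowest class to the highest. The shares of other cluster peaks were 56.5%, 57%, 46.7% and 1.90%, and those of the rest of chromosome IV 66.2%, 62.4%, 48.0% and 5.99%. Only in the second class did the interval of the piRNA peaks clear that of the rest of chromosome IV (59.2 to 65.6).

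A smaller share of the peaks over piRNA genes was found in both replicates. A peak of replicate 1's own list overlapped 30.2% of them and one of replicate 2's list 41.5%, and 12.2% (8.05 to 17.5) were overlapped in both. Of the other cluster peaks 51.3%, 57.8% and 33.2% (30.3 to 36.3) were, and of the rest of chromosome IV 51.4%, 53.9% and 29.7%. Neither replicate's list held 40.5% of piRNA peaks and 24.2% of the other cluster peaks. The series' list was itself built from the replicates, so this recurrence is not independent of it.

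**Figure D5:**
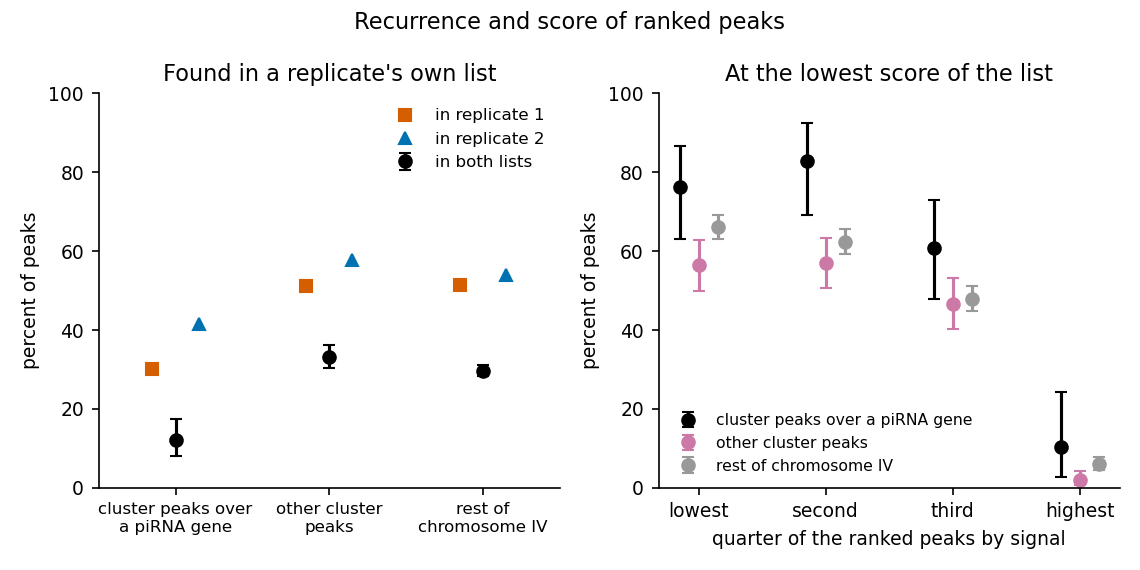
Left, percent of peaks (y axis) overlapped by a peak of replicate 1's, replicate 2's or both replicates' own ranked lists, by class; right, percent of peaks at the lowest score of the series' list, by class and by class of signal. Bars are exact 95% binomial intervals. Of cluster peaks over a piRNA gene, 12.2% are in both replicates, against 33.2% of other cluster peaks.

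Few cluster peaks scored high. A score of 540 or more, which stands for an IDR of 5.01% or less, was reached by 13 of the 1198 (1.09%, 0.579 to 1.85), beside 0.813% of the whole list and 0.910% of the rest of chromosome IV. Of these, 12 were among the 993 without a piRNA gene (1.21%) and 1 among the 205 with one (0.488%, 0.0123 to 2.69). A score of 830 or more, an IDR of 1.00% or less, was reached by 5 (0.417%), beside 0.261% of the whole list and 0.268% of the rest. The shares lay near those of the whole list. The right cluster held 8 of the 13 and the left 5. The series' conservative thresholded list, with 90 peaks of which 15 are on chromosome IV, overlapped 7 cluster peaks (0.584%, 0.235 to 1.2), beside 0.397% of the whole list and 0.375% of the rest of chromosome IV. The replicates' own thresholded lists overlapped 0, but each has only 1 peak on chromosome IV, so that count says little about the clusters.

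The 7 lay at 4 places, all in the right cluster and none over a piRNA gene. At mir-52, a microRNA gene of the abundant mir-51 family, the peak chrIV:14033821-14034344 had a signal of 89.9, with 51.4 and 33.6 in the compared lists, and a score of 844. Its summit lay in the miRNA gene, and 3 other annotated ncRNAs overlap the peak. A neighbouring peak over the same gene had a signal of 25.4 and a score of 53, and shared the first of its compared peaks. Replicate 1's own list gave the place a signal of 51.4 and replicate 2's 33.6.

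In hrpu-1, which is named for an hnRNP U-type RNA-binding protein, a peak in an intron (chrIV:15042348-15042871) had a signal of 88.2, with 51.3 and 34.4 in the compared lists, and a score of 857. The peak beside it (chrIV:15042555-15043078) had a signal of 16.6 and a score of 861 from the same compared peaks. These 2 are therefore 1 observation. At the end of snr-1, which encodes a core spliceosomal Sm protein, and the start of Y116A8C.43, the peak chrIV:17088702-17089225 had a signal of 87.6, with 48.4 and 41.1 in the compared lists, and the highest score in the clusters, 989. Its neighbour had a signal of 15.5, with 19.6 and 41.1 in the compared lists, and a score of 145.

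The fourth place was a tRNA gene inside Y43D4A.5 (Y43D4A.t2 in RefSeq), where chrIV:16775893-16776416 had a signal of 78.4, with 45.4 and 36.8 in the compared lists, and a score of 865. In the peak of highest signal at each of the 4 places the first compared signal was the higher, while in the neighbour at snr-1 the second was. Each place had a peak in both replicates' own lists.

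The other high scores lay mostly at single genes. In zip-7, a bZIP transcription factor gene, an intronic peak (chrIV:16503579-16504102) had a signal of 81.5, with 36.2 and 46.9 in the compared lists, and a score of 770. At ssq-2, a sperm-specific gene, chrIV:4996643-4997166 had 77.2, with 42.1 and 34.0, and a score of 705. Beside the snoRNA gene C17H12.36, chrIV:6793115-6793638 had 78.1, with 39.3 and 32.3, and a score of 618. In these 3 the order of the compared signals differed, with the second higher only at zip-7.

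The pseudogene Y73B6A.2 had a signal of 71.1 and a score of 580, and a peak at ari-1.4 and the antisense RNA gene anr-3 had 71.1 and 551. An intron of Y105C5A.15 had 69.1 and 555. In 2 further peaks of high signal the score was low and the compared signals were unequal: Y73F8A.26 had a signal of 76.3 and a score of 218, with 56.5 and 18.7 in the compared lists, and hil-7, a linker histone gene, had 73.5 and 195, with 21.1 and 43.6. Replicate 2's own list had no peak at Y73F8A.26.

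The only piRNA peak with a score of 540 or more lay in pqn-22, a gene named for its glutamine- and asparagine-rich product. The peak chrIV:6030383-6030906 overlaps 21ur-8094 and had a score of 552 but a signal of 10.8. It shares both compared peaks (32.9 and 37.6) with the neighbouring peak chrIV:6030176-6030699, which overlaps no piRNA gene and had a signal of 70.6 and a score of 551. The piRNA gene thus lies at the flank of a place whose higher signal is off it. Such sharing was common: 413 of the 1198 peaks (34.5%) shared both compared peaks with another cluster peak. All 1198 together reduce to 982 distinct pairs. It was not particular to the clusters, since 1413 of the 3738 peaks on the rest of chromosome IV (37.8%) shared theirs in the same way.

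Among piRNA peaks, the highest signal was at Y105C5B.5 (chrIV:15900226-15900749, 21ur-4820 and 21ur-14804), with 69.6, compared signals of 23.7 and 30.6, and a score of 237. Replicate 1's own list had 39.7 there and replicate 2's 30.6. The next, before zip-7 (chrIV:16505552-16506075), had 64.7, compared signals of 18.7 and 36.5, and a score of 123. Its summit was 132 bp before the start of zip-7, and the Ruby core of 21ur-12188 printed above lies in its summit window, so the place is upstream of a protein-coding gene and of a piRNA gene at once. It had no peak in replicate 1's own list and a signal of 41.0 in replicate 2's.

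A peak in C09B9.4 (chrIV:5032459-5032982) with 3 piRNA genes, 21ur-14544, 21ur-3393 and 21ur-1192, had a signal of 61.2 with compared signals of 19.4 and 36.3, and was likewise in replicate 2's list only. Late in fkh-7, a forkhead transcription factor gene, 92 bp after the start of one of its shorter transcripts, the peak over 21ur-4009 (chrIV:5608327-5608850) had 56.1, with 32.3 and 21.5, and was in both lists. The next was the peak over an snRNA gene and 21ur-8864 in str-166, a chemoreceptor-class gene, with 54.9. The 3 summits lay in coding exons or the snRNA gene.

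The peak in xdh-1, named for xanthine dehydrogenase, over 21ur-3120 had a signal of 53.5, with 25 and 28.3 in the compared lists, and its summit window held CAGCTG. It had no peak in replicate 1's own list and a signal of 28.3 in replicate 2's. The remaining 4 of the top 10 had signals of 47.1 to 48.2: C08F11.1 with 21ur-2879, T28H11.8 with 21ur-7226 and 21ur-13671, the tRNA gene Y57G11B.t1 with 21ur-5344, and T19E7.6 with 21ur-12138 and 21ur-7722. Those at C08F11.1 and Y57G11B.t1 had no peak in replicate 1's own list, and all 4 had one in replicate 2's. Across the top 10, the scores ran from 123 to 250, so all stood under the score of 540.

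The 5 peaks with most piRNA genes, with ties among the 9 that hold 4 genes settled by signal, had signals of 13.4 to 37.6, beside a median of 26 over all piRNA peaks. The peak chrIV:16834928-16835451, between genes, covers 6 piRNA genes, among them 21ur-4808 and 21ur-51, and had a signal of 37.6, with 19.4 and 20.8 in the compared lists, and a score of 115. It was in replicate 1's own list and not in replicate 2's. Another with 6, chrIV:15866480-15867003, had 31.1 and the lowest score, 27. One with 5 between genes (chrIV:14171947-14172470) had 28.6, one with 5 in an intron of lin-66 (chrIV:13889451-13889974) had 13.4, and one with 4 in Y41E3.18 (chrIV:15062490-15063013) had 31.3, all at the lowest score. Of these 5, 3 were in neither replicate's own list, and none was in both.

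Genes of the piRNA pathway, wherever they lie in the genome, had peaks at their starts at a share near that of all protein-coding genes. Of 26 genes found of a list of 27, 4 had a ranked peak from 500 bp before to 100 bp after a start (15.4%, 4.36 to 34.9), beside 3852 of 19985 protein-coding genes (19.3%). A thresholded peak was at the start of 0 of them and of 0.100% of protein-coding genes. Of 11 genes of piRNA transcription 1 had a peak: unc-130, a forkhead factor, with a signal of 32.9 and a score of 88. Among them snpc-4, prde-1, tofu-4 and tofu-5 had none. Of 10 genes of piRNA processing 3 had one, namely tofu-1 (signal 12), tofu-6 (22.1) and erh-2 (29.0), all at the lowest score. Of the effectors, prg-1, hrde-1, wago-1, rrf-1 and mut-16 had none in the series' list, though replicate 1's own list had 2 at rrf-1.

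The borders of the clusters are set by position and not by the peaks, and the nearest peak on each side is given here as a description. At 4.5 Mb the last peak outside had a signal of 34.6 and the first inside 30.4. At 7.0 Mb the last inside had 17.4 and the first outside 25.2. At 13.5 Mb the last outside had 36.7 and the first inside 22.5, and at 17.2 Mb the last inside had 24.2 and the first outside 28.2. None of the 8 overlapped a piRNA gene.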

How the data were processed

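The authors deposited 8 lists of peaks (narrowPeak columns, assembly ce11 per the labels): a ranked and a thresholded list for each replicate, and 2 of each kind for the series. Caller, versions, control and read depth: not given in the sources used here, so no peak's depth is known. The deposited score is the global IDR value rescaled by the authors to at most 1000, which held within 1 unit for 35301 of 35301 ranked peaks. The deposited signal is the authors' own measure of enrichment, of unstated scale, and was used only within a list. The deposited −log10 values of the IDR gave the percentages printed beside scores.

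Which lists the authors compared is not stated. Of the 24697 distinct peaks of the first compared list, 13627 are identical lines of replicate 1's own list and 0 of replicate 2's. Of the 25252 of the second, 14541 are in replicate 2's list and 0 in replicate 1's.

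Gene positions are those of Ensembl release 115, and sequences those of RefSeq (WBcel235, which is ce11). The highest peak end on chromosome IV, 17491001, lies within its 17493829 bases. A peak's place was its summit. Shares carry exact (Clopper-Pearson) 95% binomial intervals and densities exact Poisson intervals, both for counting error over peaks only. Interval shares count every position, with nothing drawn at random. All values are descriptions, with no test, since the design has 1 group. The members, gene lists and naming rule (thresholded peaks, scores of 540 or more over a piRNA gene, 10 peaks of highest signal with and 10 without a piRNA gene, 5 with most piRNA genes, and the piRNA pathway list) were chosen with earlier results of these data known. Of the peaks scoring 540 or more, those at ari-1.4 and Y105C5A.15 and the pqn-22 peak without a piRNA gene, outside the rule, were named after their values were seen. No control data were used. The counting code was tested on simulated data. Python 3.11.15, numpy 2.4.6, pandas 2.3.3, scipy 1.17.1 and matplotlib 3.10.9 were used.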

Additional observations from a re-analysis of the deposited data

How the results depend on the processing

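The lower density of peaks in the clusters and the lower share of piRNA genes overlapped kept their direction in each of the alternatives run on them. The density ratio (0.584) moved to 0.623 with overlapping peaks merged, 0.539 with borders 0.25 Mb inward and 0.669 with borders outward, and was 0.575 to 0.608 with a replicate left out. The share of cluster peaks over a piRNA gene (17.1%) was 22.0% merged, 20.8% inward, 13.4% outward and 7.51% for summits within 100 bp of a piRNA gene, and 14.6% to 19% with a replicate left out. The gap between piRNA genes and intervals (-6.37 percentage points) was -5.62 inward, -7.43 outward, -3.76 for the upper 50% by signal, -6.07 for whole genes inside a peak, and -4.34 to -3.82 with a replicate left out. Of weightings added after seeing the data, feature class gave -4.20, feature class with GC -1.0, and GC alone -0.983 (201 bases) and -0.613 (525 bases). The difference in median signal between piRNA and other cluster peaks (-0.229) was -3.75 in that upper 50% and -2.01 (-3.86 to -0.799) with overlapping peaks merged, changed sign with the borders outward (0.477) and in replicate 2's own list, and was -2.55 to 0.0607 with a replicate left out. The share scoring 540 or more (1.09%) was 0.417% at 830, and 0.116% to 0.153% in the replicates' own lists, whose scores come from other comparisons. The Ruby core in windows of piRNA peaks (9.76%) was 4.88% within 25 bp, 19% within 100 bp, 15.6% with 7 letters, 20% for summits within 100 bp of a piRNA gene, and 3.16% to 7.32% with a replicate left out. Any bHLH motif in cluster windows (23.6%) was 42.1% within 100 bp, and 24.6% to 25.8% with a replicate left out (added after seeing the data). Recurrence in both replicates (29.6%) was 24.0% when the overlap had to reach 50% of the smaller peak. The causes of these moves were not tested. No paired analysis was possible because there is 1 group. With 2 replicates and no reads, the spread between animals was not measured.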
